A study of Rattus norvegicus with 24 samples.

Results

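MABsallo-VEGF, mesoangioblasts (MABs) carrying a VEGF transgene, were compared with MABsallo, plain MABs, in the urethra of female Sprague-Dawley rats of 12 weeks, 3d after simulated vaginal delivery (SVD). The samples were chosen by their labelled treatment and day alone, 4 MABsallo-VEGF and 4 MABsallo urethras, which are 8 of the 24 samples of the series. All 8 rats had SVD (a crush of the pudendal nerve with distension of the vagina), followed by an injection of cells into the aorta. MABs are vessel-associated progenitor cells that can give rise to muscle, grown here from hind-limb muscle and given to another rat (allogeneic). For MABsallo-VEGF a lentiviral vector used the viral SFFV promoter, which is active in most cell types, to express VEGF165 together with a truncated CD34. The genotype that the labels give, VEGF OE, is that of the injected cells, while the sequenced RNA came from the whole urethra of the recipient. Urethras of rats that had SVD and saline at 3d, 4 samples, are given as the background level, and those of 7d enter only the comparison of days. No label says whether replicates shared a day of surgery or a batch of cells, so p-values measure the spread between these samples.

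VEGF-A is secreted by hypoxic or injured tissue and acts on endothelial cells through the receptor Kdr (VEGFR2), with Flt1 (VEGFR1) acting as a second receptor and a decoy, and with the neuropilins Nrp1 and Nrp2 as co-receptors. It drives the sprouting and permeability of vessels, and through Flt1 it also attracts monocytes. After SVD the urethra holds injured striated and smooth sphincter muscle, denervated fibres, urothelium, fibroblasts, vessels and invading leukocytes, and every measurement below is a sum over these cells.

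Reads counted on genes numbered 2170695 to 4491900 in the 8 samples and 4851797 to 10166052 in the other 16, and so the groups compared are the shallowest of the series. The values are normalized gene counts, in which 1 read was worth 4.45 to 9.23 in the 8 samples. Markers of the labelled tissue were present, since all 8 urethras had transcripts of the urothelial Upk3a, the smooth muscle myosin Myh11 and the skeletal actin Acta1. Their amounts differed widely. The 14 urothelial markers summed to 45589.9, 19749.6, 24778 and 17749.8 after MABsallo and to 44252, 1875, 35618 and 15615 after MABsallo-VEGF (replicates 1 to 4 in each), so that MABsallo-VEGF replicate 2 held the least urothelial RNA. MABsallo replicate 4 had the highest share of reads on mitochondrial mRNA of the 8, 17.6% against 8.16% to 14.6% in the other 7. MABsallo-VEGF replicate 4 was the highest on the first principal component (PC1) and had 451347 normalized counts of erythroid markers against 22704 to 265356 in the other 7. Values are given with all 8 samples, and in places also with 7 (without MABsallo-VEGF replicate 4).

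**Figure D1:**
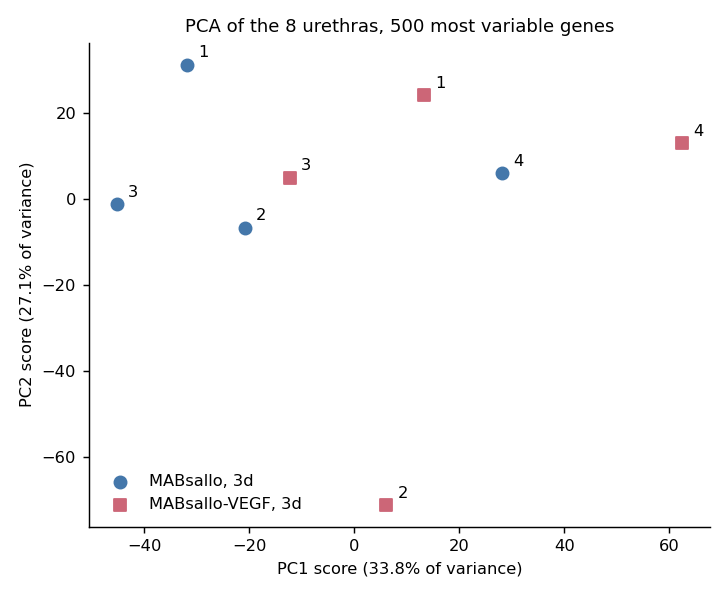
Principal component analysis of log2(normalized gene count + 1) of the 500 most variable genes, with the PC1 score on the x axis, the PC2 score on the y axis, 1 point per urethra and its replicate number beside it. The groups overlap on PC1, where MABsallo replicate 4 (28.2) lies among the MABsallo-VEGF samples and MABsallo-VEGF replicate 4 (62.5) is the farthest to the right.

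The groups overlapped on the first principal component, while it was higher after MABsallo-VEGF within each pair of the same replicate number. No label makes samples of the same number pairs, so a pair here and below means the shared number only. PC1, with 33.8% of the variance, had scores of -31.9, -20.8, -45.2 and 28.2 in MABsallo and of 13.4, 6.14, -12.3 and 62.5 in MABsallo-VEGF (replicates 1 to 4). The mean scores differed by 34.8, which did not pass the test (two-sided exact permutation test, p = 0.2, where 4 against 4 cannot go below 0.0286). Within the pairs PC1 was higher by 45.2, 26.9, 32.9 and 34.3 (replicates 1 to 4), and an exact permutation within pairs, added after seeing the data, gave p = 0.125 (two-sided), the smallest that 4 pairs allow. Over all 16606 genes tested, Euclidean distances between urethras of different treatment (174 to 278, median 213) covered those within MABsallo (197 to 233, median 219) and within MABsallo-VEGF (174 to 255, median 229).

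RT1-Db1, RT1-Bb, Ciita, Tap2, C1qc, Fcgr1a, Cpa3 and Ccnb1ip1 were added to the genes named below after their values were seen. Vegfa and Cd34, the rat genes that match the parts of the transgene, lay lower after MABsallo-VEGF without passing the adjusted test. Vegfa, the rat gene for VEGF-A, had normalized gene counts of 2002, 1565, 2262 and 1334 after MABsallo and of 1352, 1167, 1292 and 619 after MABsallo-VEGF, lower in all 4 pairs of the same replicate number though the groups touched at MABsallo replicate 4 and MABsallo-VEGF replicate 1. Of all genes 7.43% were lower and 6.3% higher in all 4 pairs. Its log2 fold change (here and below ± its standard error) was -0.73 ± 0.26 (unadjusted p = 0.00997, adjusted p = 0.574 from limma) and -0.47 with 7 samples. In saline urethras Vegfa had 958 to 1172. Cd34, a surface protein of endothelial and progenitor cells, had 469, 1373, 803 and 174 after MABsallo and 249, 783, 373 and 57.9 after MABsallo-VEGF, lower in all 4 pairs, with a log2 fold change of -1.10 ± 0.98 (adjusted p = 0.861 from limma) and of -0.39 with 7 samples. The groups overlapped widely in Cd34. The libraries read the 3′ ends of transcripts and the vector's transcript ends in vector sequence, so whether its transcripts would be counted on either gene is not known, and these values do not check the labels.

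None of the 23 VEGF axis genes that could be tested was called. Of these, 17 were above 0, 0 were higher and 1 (Vegfa) lower at an unadjusted p below 0.05, and the median log2 fold change was 0.26, against -0.04 over all genes tested. Among all genes 3.44% were higher and 3.38% lower at an unadjusted p below 0.05. The other ligands Vegfd and Pgf lay higher without passing that mark. Vegfd, which acts on lymphatic vessels, had 56.8, 514, 203 and 212 after MABsallo and 335, 508, 303 and 414 after MABsallo-VEGF (log2 fold change 1.02 ± 0.49, unadjusted p = 0.051). Placental growth factor, Pgf, had 42.6, 115, 27.7 and 249.5 and then 184, 183, 85.8 and 178 (log2 fold change 0.97 ± 0.51, unadjusted p = 0.0718). In both genes MABsallo replicates 1 and 3 were the lowest of the 8 samples.

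Receptor transcripts overlapped between the groups. Kdr, the main signalling receptor, had 639, 749.5, 609 and 759 after MABsallo and 529.9, 1025, 499 and 779 after MABsallo-VEGF, and the 95% interval of its log2 fold change was -0.57 to 0.53. Flt1 had 1129 ± 304 and 1342 ± 382 (mean ± SD, n = 4 each), with a log2 fold change of 0.24 (95% interval -0.31 to 0.78, and 0.15 with 7 samples). For Flt4, the receptor of lymphatic endothelium, the means were 196 ± 74.0 and 320.4 ± 201 (mean ± SD, n = 4 each), and it was higher in all 4 pairs of the same replicate number. The co-receptors Nrp1 and Nrp2 had log2 fold changes of 0.42 ± 0.31 and 0.26 ± 0.24. Rcan1, a gene induced by VEGF through calcineurin, had a log2 fold change of 0.68 ± 0.35 (unadjusted p = 0.0681) and was higher in all 4 pairs. The remaining members Vegfb, Vegfc, Angpt1, Angpt2, Angpt4, Tek, Tie1, Esm1, Apln, Aplnr, Dll4, Egr3, Plvap and Nos3 had unadjusted p of 0.217 or more.

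Of 19 endothelial markers measured, 15 were above 0, as were 46.7% of all genes (median log2 fold change 0.37, and 0.19 without MABsallo-VEGF replicate 2), and 1 was higher at an unadjusted p below 0.05, a share near the 3.44% of all genes. That gene was Cldn5, a claudin of endothelial tight junctions, with 178, 284, 175 and 385 after MABsallo and 378, 642, 469 and 628 after MABsallo-VEGF, where the groups overlapped only at MABsallo replicate 4 (log2 fold change 1.09 ± 0.40, unadjusted p = 0.0111, adjusted p = 0.594 from limma). The summed level of the list was higher in all 4 pairs, by a ratio of 1.08 to 1.51. Saline urethras summed to 16710 to 28880, with a median of 19983 against 15845 after MABsallo-VEGF. In bulk samples a higher sum from more cells of a type and from more RNA per cell cannot be told apart.

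Over the whole transcriptome 1 gene was differentially expressed (DEG: more than 1 apart on the log2 scale at an adjusted p below 0.05), which is 0.00602% of the 16606 tested, and with 7 samples 3 were (0.0181% of 16594). Zcwpw2 (ENSRNOG00000053820), which encodes a protein with CW zinc finger and PWWP domains, had 7.10, 32.8, 46.2 and 10.8 after MABsallo and 0 in all 4 MABsallo-VEGF urethras (adjusted p = 0.00479 from limma). It was at least 1.39-fold lower, taking 3 reads per library as the floor, since the 4 MABsallo values rest on 14 reads. With 7 samples a copy of the spliceosomal RNA U1 (ENSRNOG00000061082) was also called (adjusted p = 0.000772 from limma). It was at 0 in all MABsallo urethras and at 10.8, 83.3, 25.2 and 0 in MABsallo-VEGF, at least 1.95-fold higher in the 3 urethras kept. The third, Camk2g (ENSRNOG00000009783), a subunit of the kinase CaMKII, was at 0 in all MABsallo urethras and rested on 7 reads in MABsallo-VEGF, too few for a fold (adjusted p = 0.000772 from limma). U1 and Camk2g were both at 0 in MABsallo-VEGF replicate 4, the sample left out.

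These calls rested on the shared spread of the 24 samples, in which 6.82% of genes had an unadjusted p below 0.05 (5.28% with 7 samples, 2.65% higher and 2.63% lower). A fit of only the 8 samples called 0 DEGs (524 genes at an unadjusted p below 0.05), the same fit with the replicate number as a block called 0 (1215), and edgeR and DESeq2 on the recovered reads called 0 each (877 and 771). With 7 samples these counts were also 0 (342, 933, 543 and 469 at an unadjusted p below 0.05). Leaving out 1 urethra moved the count of 1 to 43 without MABsallo replicate 4, to 8 without MABsallo-VEGF replicate 3, to 5 without MABsallo replicate 2 and to 2 or 3 without any other. With 7 samples the count of 3 went to 26 without MABsallo replicate 4, to 24 without MABsallo-VEGF replicate 3 and to 7 to 11 without any other. The groups did not overlap in 139 genes that were higher (0.837% of those tested) and in 127 that were lower (0.765%). Saline urethras lay nearer to MABsallo-VEGF than to MABsallo, by mean log2 level, in 119 of the 139 (85.6%) and in 88 of the 127 (69.3%), beside 67.2% of all genes tested.

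**Figure D2:**
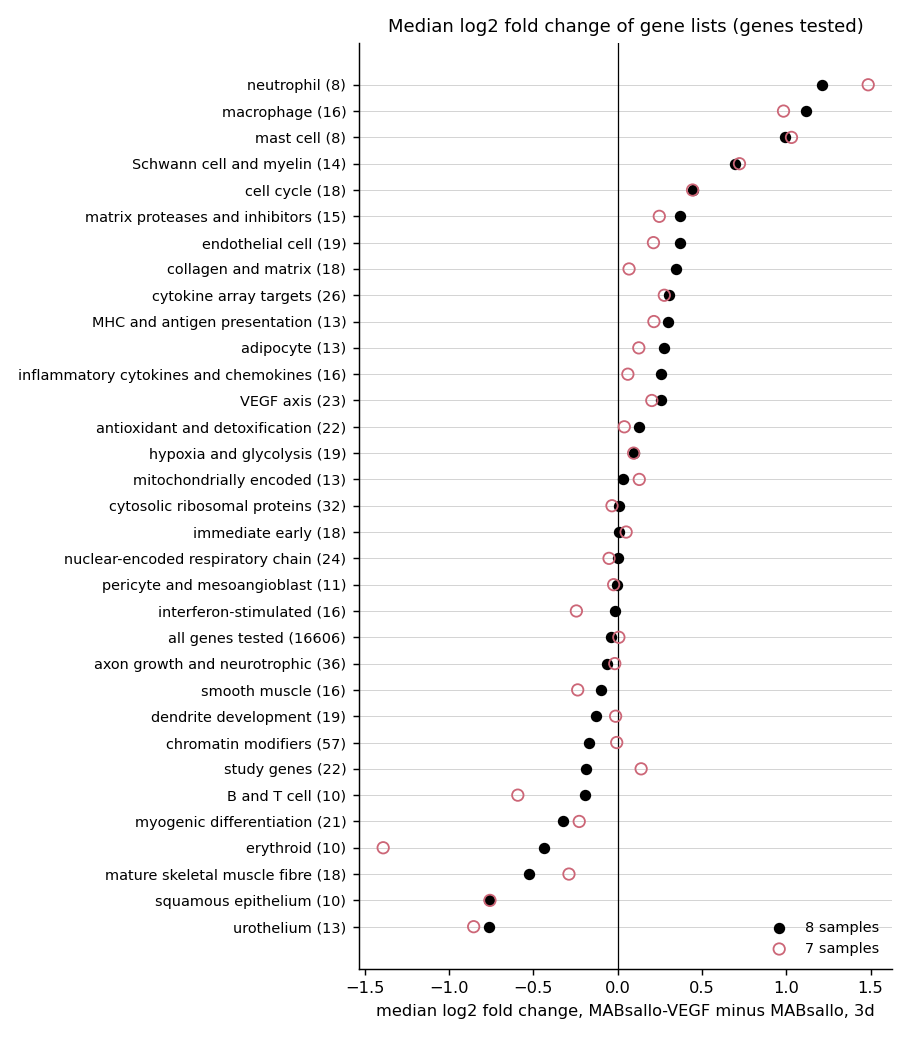
Median log2 fold change (MABsallo-VEGF minus MABsallo at 3d, x axis) of the gene lists (y axis, number of genes tested in brackets) with 8 samples (filled) and with 7, without MABsallo-VEGF replicate 4 (open). Neutrophil, macrophage and mast cell lists lie farthest to the right, at 0.99 to 1.21 with 8 samples, and urothelium and squamous epithelium farthest to the left, at -0.76 each.

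Several genes of antigen presentation and of leukocytes lay higher after MABsallo-VEGF. None of them passed the adjusted threshold, and the values below are those of the samples. MHC class II molecules are pairs of an alpha and a beta chain on macrophages, dendritic cells and B cells that show peptides to CD4+ T cells, and Cd74 is the invariant chain that occupies them on the way to the surface. Of 13 genes of MHC and antigen presentation, 4 were higher and 1 was lower at an unadjusted p below 0.05, and the median of the list was 0.30. The 4 were RT1-Da, RT1-Ba, RT1-Db1 and Cd74, and the 1 was Tap2. Of all genes, 3.44% were higher and 3.38% lower at that mark.

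RT1-Da, the rat DR alpha chain, had 1143, 1368, 2077 and 884 after MABsallo and 2579, 6768, 3214 and 6394 after MABsallo-VEGF, and the groups did not overlap (log2 fold change 1.74 ± 0.44, unadjusted p = 0.00055, adjusted p = 0.228 from limma). RT1-Ba, the DQ-like alpha chain, had 277, 197, 305 and 114 and then 519, 1150.1, 570.1 and 1224, again without overlap (log2 fold change 1.94 ± 0.50, adjusted p = 0.246 from limma). For RT1-Db1, the DR beta chain, the values were 554, 722, 1154 and 987 and 2168, 4026, 1791 and 4181 (log2 fold change 1.79 ± 0.52). In all 3 genes MABsallo-VEGF replicates 2 and 4 were the highest of the 8 samples. RT1-Bb, the DQ-like beta chain, had 355, 498, 1034 and 10.8 and 1444, 3309, 1473 and 1349, without overlap but with a wide spread (log2 fold change 3.02 ± 1.90, unadjusted p = 0.125, and 1.63 without MABsallo replicate 4, the lowest sample). Cd74 had 2024, 1997, 4514 and 1953 and 3704, 8984, 4424 and 7832, with MABsallo replicate 3 among the MABsallo-VEGF values (log2 fold change 1.25 ± 0.42, unadjusted p = 0.00644). Saline urethras had 2517 to 4899.5 of RT1-Da and 262 to 1223 of RT1-Ba, a range that includes 2 or more MABsallo-VEGF values of each gene. RT1 genes are a family of close copies that differ between outbred rats, and reads that mapped to several places were discarded, so their counts are uncertain.

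The promoters of these 4 chains are shown because the genes lay higher together. Each stretch runs from 120 bases to 1 base before the RefSeq transcription start on chromosome 20 of GRCr8, another build than that of the counts. Capitals mark CTGATTGG, the core of the Y box, an inverted CCAAT element of class II promoters.
RT1-Da, chr20:4515295-4515414, plus strand: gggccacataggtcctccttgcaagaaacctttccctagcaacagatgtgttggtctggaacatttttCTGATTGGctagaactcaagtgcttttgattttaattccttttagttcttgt
RT1-Ba, chr20:4576937-4577056, plus strand: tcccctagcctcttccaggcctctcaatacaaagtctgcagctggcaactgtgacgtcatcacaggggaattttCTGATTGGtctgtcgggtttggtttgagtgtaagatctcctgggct
RT1-Db1, chr20:4560163-4560282, minus strand: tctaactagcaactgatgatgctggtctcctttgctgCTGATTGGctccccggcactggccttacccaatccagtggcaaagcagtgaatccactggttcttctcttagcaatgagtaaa
RT1-Bb, chr20:4604119-4604238, minus strand: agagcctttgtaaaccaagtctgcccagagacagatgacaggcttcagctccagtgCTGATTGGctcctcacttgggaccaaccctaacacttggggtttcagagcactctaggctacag
The 8 letters begin 52, 46, 83 and 64 bases before the start in RT1-Da, RT1-Ba, RT1-Db1 and RT1-Bb, each on the strand of the gene. On either strand they occur in 3.50% of the 33469 RefSeq promoter windows of 300 bases in rat. The match describes these letters and tests nothing about the factor that binds them.

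Other genes of antigen presentation had no common direction. Ciita, the coactivator on which class II transcription depends, had 49.7, 10.9, 175 and 5.42 after MABsallo and 64.9, 217, 65.6 and 40.1 after MABsallo-VEGF (log2 fold change 1.46 ± 0.92, unadjusted p = 0.126). B2m, the light chain of class I molecules, had 38854 ± 8000.1 and 40441 ± 12386 (mean ± SD, n = 4 each, log2 fold change 0.03). Tap2, a subunit of the peptide transporter for class I, was lower without overlap, at 56.8, 38.3, 18.5 and 27.1 against 0, 8.33, 5.04 and 0 (log2 fold change -3.61 ± 1.20, unadjusted p = 0.0062), on 2 to 8 reads in each MABsallo urethra. Of 16 interferon-stimulated genes, 8 were above 0 and 0 had an unadjusted p below 0.05 (median -0.02). With 7 samples 4 were above 0 and 2 were lower at that mark (median -0.24), beside 2.63% of all genes.

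**Figure D3:**
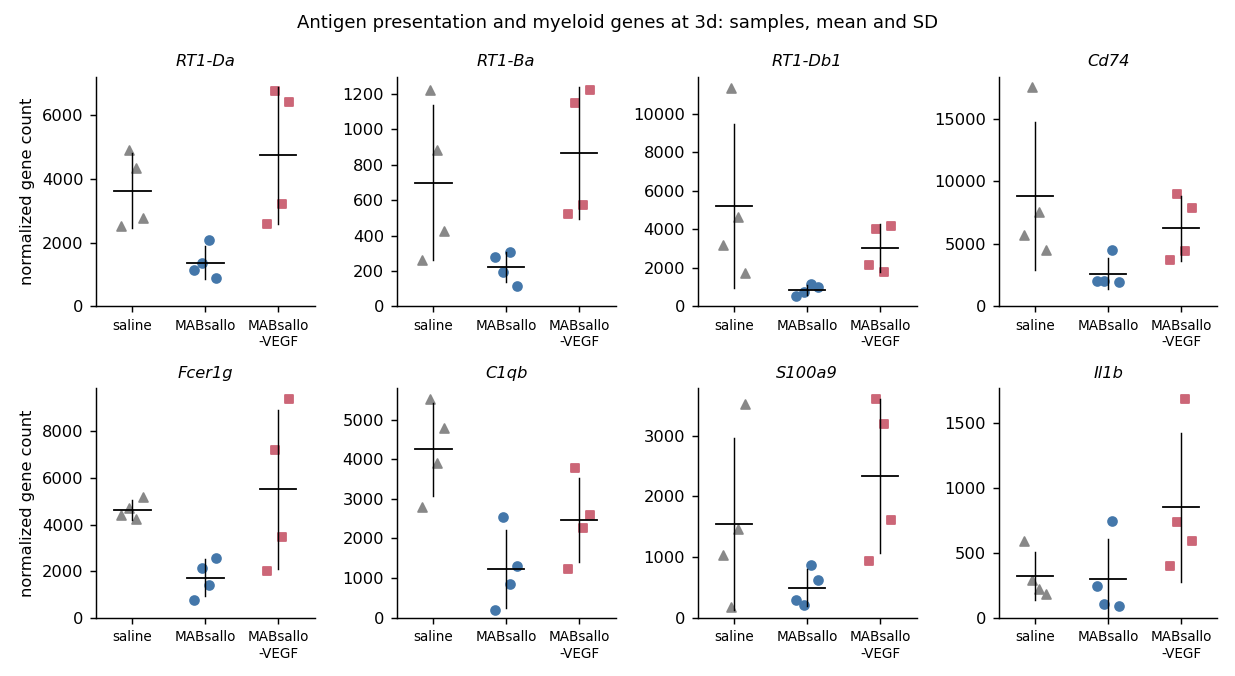
Normalized gene counts (y axis, from 0) of 8 genes of antigen presentation and myeloid cells in the 4 saline, 4 MABsallo and 4 MABsallo-VEGF urethras at 3d, with 1 point per sample, a horizontal line at the mean and a vertical line of 1 SD each way (down to 0 at most). RT1-Da, RT1-Ba, RT1-Db1 and S100a9 do not overlap between MABsallo and MABsallo-VEGF, and in Cd74, Fcer1g, C1qb and Il1b at least 1 MABsallo sample reaches into the MABsallo-VEGF range.

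Macrophage markers were higher as a group. Of 16 tested, 15 were above 0 and 6 were higher at an unadjusted p below 0.05, where 3.44% of all genes were (2 with 7 samples, where 2.65% were), with a median log2 fold change of 1.12 and of 0.71 without MABsallo-VEGF replicate 2. Fcer1g, the signalling gamma chain of Fc receptors, had 767, 2123, 1385 and 2566 after MABsallo and 1989.8, 7193, 3446 and 9408 after MABsallo-VEGF (log2 fold change 1.58 ± 0.42, unadjusted p = 0.00088, adjusted p = 0.252 from limma). It was higher in all 4 pairs, while MABsallo replicates 2 and 4 exceeded MABsallo-VEGF replicate 1. The complement C1q chains C1qa, C1qb and C1qc, made mainly by tissue macrophages, had log2 fold changes of 1.15, 1.41 and 1.35 (standard errors 0.45, 0.53 and 0.52). C1qb had 192, 2533, 859 and 1297 and then 1222, 3775, 2275 and 2591. The last 2 of the 6 were Tyrobp, the adaptor DAP12 (log2 fold change 1.13, unadjusted p = 0.0258), and the Fc receptor Fcgr1a. Lyz2, the lysozyme of macrophages, had a log2 fold change of 1.01 (unadjusted p = 0.0908).

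Summed over the list, macrophage transcripts came to 5133, 28448, 16922 and 19535 after MABsallo and to 11549.6, 67167, 29316 and 44762 after MABsallo-VEGF, replicates 1 to 4 in each. The spread within a group was wide, with replicate 1 the lowest and replicate 2 the highest in both, and within the pairs of the same number the ratio was 1.73 to 2.36. Saline urethras summed to 35698 to 69428. Marco was at 0 in all 8 samples.

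Of 8 neutrophil markers tested, 8 were above 0 and 2 were higher at an unadjusted p below 0.05, beside 46.7% and 3.44% of all genes (median log2 fold change 1.21, and 0.64 without MABsallo-VEGF replicate 2). They were S100a8 and S100a9, the chains of calprotectin. S100a9 had 291, 213, 868 and 618 after MABsallo and 935, 3600.5, 3188 and 1616 after MABsallo-VEGF, without overlap (log2 fold change 2.25 ± 0.70, unadjusted p = 0.00379, adjusted p = 0.453 from limma). S100a8 had 489.9, 410.3, 1477 and 895 and 1022, 3650.5, 4469.9 and 1772 (log2 fold change 1.70 ± 0.75). The granule genes Mpo and Elane, which mark immature neutrophils, were at 0 in all 8 samples, and saline urethras ranged from 184 to 3516 in S100a9.

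Mast cell proteases were near the floor after MABsallo. Hdc, which makes histamine, was at 0 in all 4 MABsallo urethras and at 0, 66.7, 30.3 and 17.8 in MABsallo-VEGF, at least 1.40-fold higher with 3 reads per library as the floor (unadjusted p = 0.000273, adjusted p = 0.223 from limma). The tryptase Tpsb2 had 0, 16.4, 0 and 21.7 and 21.6, 250.03, 35.3 and 53.4, and carboxypeptidase Cpa3 had 0, 21.9, 9.23 and 0 and 10.8, 142, 15.1 and 49.0. MABsallo-VEGF replicate 2 was the highest of the 8 in all 3 genes. Kit, a receptor that other cells share, had 369, 191, 286 and 293 and 146, 150.02, 222 and 298, and of 8 mast cell genes 7 were above 0, and Hdc, Tpsb2 and Cpa3 were higher at an unadjusted p below 0.05, beside 46.7% and 3.44% of all genes, with a median of 0.99 (0.40 without MABsallo-VEGF replicate 2). Saline urethras had 17.2 to 122 of Hdc and 62.0 to 576 of Tpsb2.

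Markers of lymphocytes had no steady direction. Of 10 markers of B and T cells tested, 2 were above 0, beside 46.7% of all genes (median -0.19). Over the alternatives this median ran from -0.59 (with 7 samples) to 0.11. The summed level was higher in 2 pairs of the same replicate number and lower in 2. Of the 10, 1 was lower at an unadjusted p below 0.05, beside 3.38% of all genes. This was the costimulatory receptor Cd27, with 21.3, 21.9, 73.9 and 16.3 after MABsallo and 0, 0, 10.1 and 22.3 after MABsallo-VEGF (log2 fold change -2.83 ± 1.02). Hcst, the adaptor DAP10 of natural killer and T cells, was higher without overlap, at 0, 10.9, 0 and 16.3 against 27.0, 91.7, 35.3 and 22.3 (log2 fold change 3.34 ± 0.84, adjusted p = 0.233 from limma). P2ry10, a lysophospholipid receptor of lymphocytes, was at 0, 10.9, 18.5 and 0 and 32.4, 58.3, 25.2 and 44.5, likewise without overlap. Pag1, an adaptor that restrains Src kinases in lymphocytes, was lower without overlap, at 128, 38.3, 36.9 and 21.7 against 10.8, 0, 10.1 and 0 (log2 fold change -3.76 ± 0.84, adjusted p = 0.223 from limma). Hcst, P2ry10 and Pag1 were picked among genes higher or lower without overlap, so neither their separation nor their lying on both sides is a result. The defining B cell genes Cd79a and Pax5 were at 0 in all 8 samples.

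Of the proteins on the cytokine array that the study used on the cultured cells, 26 genes could be tested in the urethra, and 2 were higher at an unadjusted p below 0.05 (1 with 7 samples), beside 3.44% of all genes (2.65% with 7). The median of the list was 0.30. Il1b, the cytokine interleukin-1 beta, had 241, 109, 748 and 92.2 after MABsallo and 395, 733, 1679.98 and 588 after MABsallo-VEGF, where MABsallo replicate 3 lay above MABsallo-VEGF replicates 1, 2 and 4 (log2 fold change 1.82 ± 0.60, unadjusted p = 0.00577, adjusted p = 0.535 from limma). The other was Cd86, a costimulatory ligand of antigen-presenting cells (log2 fold change 1.04 ± 0.49, unadjusted p = 0.0461). The chemokine genes Cxcl1, Cxcl3, Cxcl6 and Ccl2 and the protease inhibitor Timp1 had unadjusted p of 0.199 or more. Cxcl1 reached 671 in MABsallo-VEGF replicate 3 and 81.1 to 91.7 in the others of the group. Of 16 inflammatory cytokines and chemokines 10 were above 0, with a median of 0.26 (9 and 0.06 with 7 samples), and 1, Ccl19, had an unadjusted p below 0.05. Ccl19, a chemokine that guides dendritic cells and T cells, had 7.10, 142, 92.3 and 168 and 151, 733, 136 and 209 (log2 fold change 1.87 ± 0.79, unadjusted p = 0.0265). Mmp12, the elastase of macrophages, had 156, 54.7, 9.23 and 54.2 and 205, 758, 121 and 369.6 (log2 fold change 2.62 ± 0.78, unadjusted p = 0.00254), and it was the only 1 of 15 matrix proteases and inhibitors with an unadjusted p below 0.05.

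**Figure D4:**
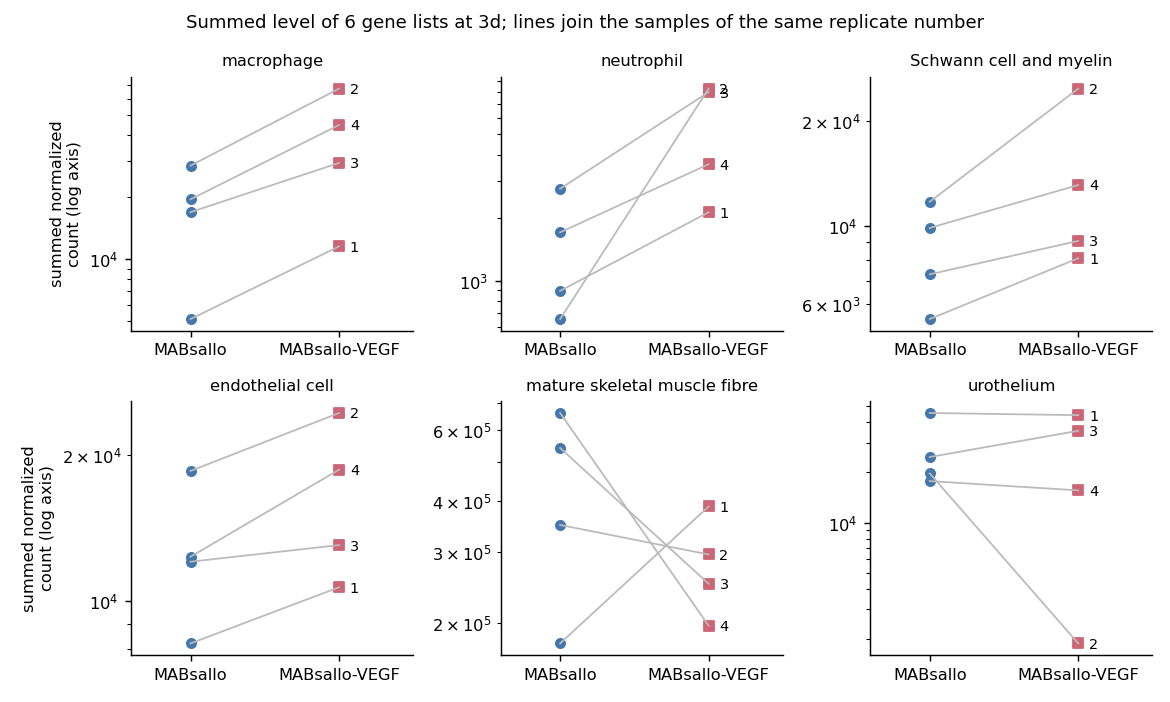
Summed normalized gene counts (y axis, log scale) of 6 marker lists in the 4 MABsallo and 4 MABsallo-VEGF urethras, with lines joining samples of the same replicate number, which is printed beside the MABsallo-VEGF point. No label makes the joined samples pairs. The macrophage, neutrophil, Schwann cell and endothelial sums are higher after MABsallo-VEGF in all 4 pairs, as are sums of some lists not shown. The muscle sum is lower in 3 of 4, and the urothelial sum of MABsallo-VEGF replicate 2 stands alone at 1875.

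Schwann cells wrap axons in myelin, and the pudendal nerve was crushed in every rat. Of 14 Schwann cell and myelin genes, 12 were above 0, beside 46.7% of all genes (median log2 fold change 0.69, and 0.32 without MABsallo-VEGF replicate 2). Summed, the list came to 5432, 11757, 7293 and 9895 after MABsallo and to 8105, 24762, 9086 and 13126 after MABsallo-VEGF (replicates 1 to 4 in each), and MABsallo-VEGF replicate 2 was the highest of the 8. The sum was higher in all 4 pairs, by a ratio of 1.25 to 2.11, as were sums of lists that mark no cell type. Saline urethras summed to 12538 to 56846, with a median of 13095 against 11106 after MABsallo-VEGF.

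Genes of axon growth and neurotrophic signalling had no common direction, with 17 above 0 and 19 below. Gdnf and Ret are given as the members of that list with the lowest p. Gdnf, the glial cell line-derived neurotrophic factor, had 28.4, 5.47, 0 and 10.8 after MABsallo and 32.4, 91.7, 75.7 and 22.3 after MABsallo-VEGF (log2 fold change 2.81 ± 1.11, unadjusted p = 0.0184). Ret, the kinase through which it signals, had 21.3, 32.8, 27.7 and 38.0 and 0, 0, 5.04 and 8.91, without overlap (log2 fold change -3.45 ± 0.89, adjusted p = 0.246 from limma). Both rest on few reads, 3 to 7 per MABsallo urethra for Ret. Among 36 genes of axon growth and neurotrophic signalling these were the 2 with an unadjusted p below 0.05, a share near the 6.82% of all genes. The median of the list was -0.06. Of 19 genes of dendrite development 1 was lower at that mark, beside 3.38% of all genes. It was the postsynaptic scaffold Shank3 (log2 fold change -1.73 ± 0.82, unadjusted p = 0.0457, and -1.30 with 7 samples).

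Genes of striated muscle fibres and a few of mitochondrial metabolism lay lower after MABsallo-VEGF. Of 18 genes of mature muscle fibres, 17 were below 0 (as were 8857 of all 16606 genes) and 0 had an unadjusted p below 0.05. Their median log2 fold change was -0.53 (and -0.29 with 7 samples). Their sum was lower in 3 of 4 pairs and 2.18 times higher in the pair of replicate 1. Cacna1s, the voltage sensor of excitation-contraction coupling, did not overlap, at 206, 525, 895 and 179 against 108, 150.02, 166 and 26.7 (log2 fold change -1.96 ± 0.96, unadjusted p = 0.053). Acta1 had 25709.5, 64041, 94643 and 129158 and 68043, 60908, 44754 and 40065, which overlap widely. Of 21 genes of myogenic differentiation, 9 were above 0 and 0 had an unadjusted p below 0.05, among them Pax3, Pax7, Myh3 and Myh8.

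Sdha, the catalytic subunit of succinate dehydrogenase, had 3309, 2495, 2889.5 and 1904 after MABsallo and 1887, 1584, 1796 and 1625 after MABsallo-VEGF, without overlap and with a small spread (log2 fold change -0.59 ± 0.15, unadjusted p = 0.000786, adjusted p = 0.246 from limma). Idh3a, of the citrate cycle, had 2087, 2379.8, 3369.6 and 2078 and 1909, 1667, 1609 and 1118 (log2 fold change -0.65 ± 0.19). Aldh6a1, a mitochondrial enzyme of valine breakdown, had 675, 777, 942 and 602 and 524, 408, 409 and 378 (log2 fold change -0.79 ± 0.19, adjusted p = 0.223 from limma). None of the 3 overlapped between the groups, but they were picked among the 0.765% of genes that were lower without overlap. Saline urethras, at 1687 to 1974 of Sdha, 1283 to 1615 of Idh3a and 492 to 697 of Aldh6a1, lay mostly in the range of MABsallo-VEGF for the first and second gene and mostly above it for the third. Hk2, the hexokinase of muscle, had 2535, 1887, 2788 and 2067 and 1692, 1709, 1226 and 779, also without overlap (log2 fold change -0.83 ± 0.38, unadjusted p = 0.0382). The respiratory chain as a whole did not share this, since 12 of its 24 nuclear-encoded genes were above 0 (8 with 7 samples) and Sdha alone had an unadjusted p below 0.05, nor did the 13 mitochondrially encoded genes (median 0.03, and 0.13 with 7 samples). Of 19 genes of hypoxia and glycolysis 12 were above 0, with a median of 0.10.

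**Figure D5:**
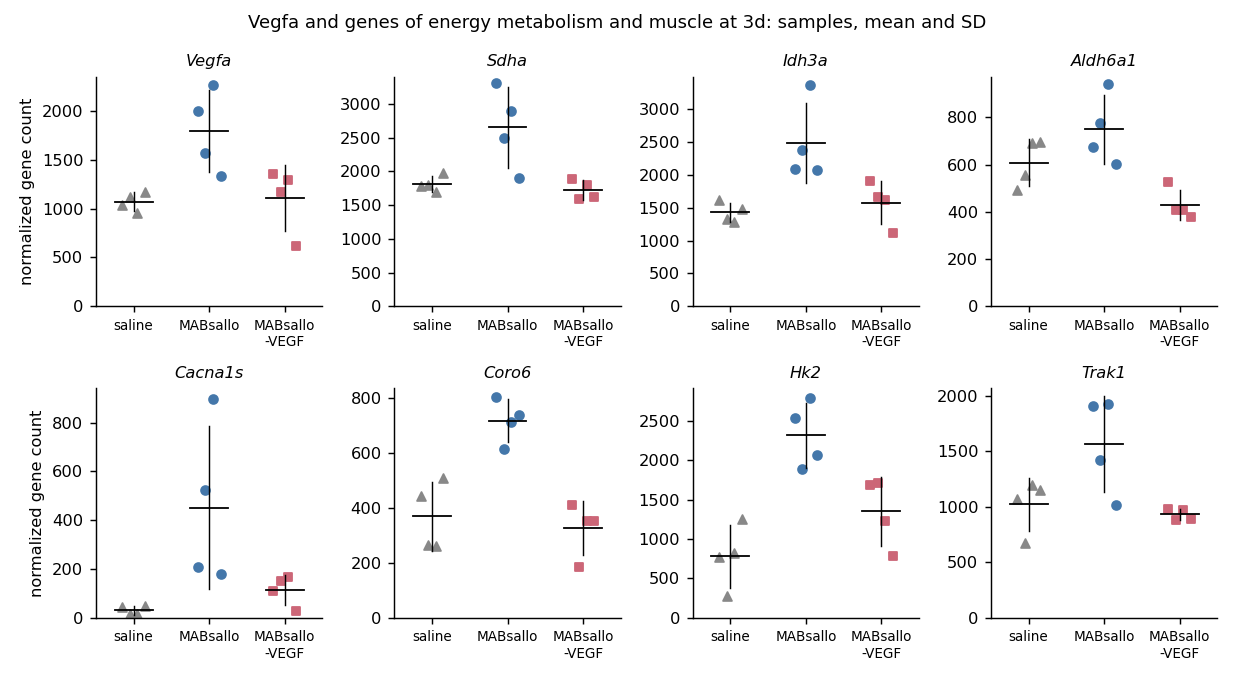
Normalized gene counts (y axis, from 0) of Vegfa and 7 genes of energy metabolism and muscle in saline, MABsallo and MABsallo-VEGF urethras at 3d, with 1 point per sample, the mean as a horizontal line and 1 SD each way as a vertical line (down to 0 at most). In all genes shown but Vegfa the MABsallo-VEGF samples lie below every MABsallo sample, and several of these genes were picked among those without overlap.

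Trak1, which links mitochondria to kinesin, was lower without overlap, at 1903, 1417, 1920.2 and 1014 against 979, 883, 974 and 891 (log2 fold change -0.70 ± 0.22). So was Coro6, an actin-binding coronin, at 802, 613, 711 and 738 against 411, 183, 353 and 352 (log2 fold change -1.19 ± 0.35). Neu2, a cytosolic sialidase of muscle, had 35.5, 32.8, 55.4 and 59.7 and 0, 0, 0 and 8.91, and Trim7, a ubiquitin ligase that binds glycogenin, had 35.5, 76.6, 92.3 and 38.0 and 0, 0, 15.1 and 22.3. Bcl7c, a subunit of BAF chromatin remodelling complexes, had 653, 673, 572 and 548 and 297, 500.1, 383 and 298 (log2 fold change -0.75 ± 0.20, adjusted p = 0.261 from limma). Gabpb1l, named for its likeness to a subunit of the factor GABP, had 35.5, 43.8, 64.6 and 21.7 and 0, 0, 5.04 and 13.4. These 6 genes were picked among those in which every MABsallo-VEGF urethra was below every MABsallo urethra (0.765% of genes tested), so their separation is no result. Their adjusted p was 0.257 to 0.483 from limma.

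Among the genes that lay higher without overlap were several of no list. Aph1b, a subunit of gamma-secretase, had 21.3, 16.4, 0 and 32.5 after MABsallo and 70.3, 75.0, 70.6 and 84.6 after MABsallo-VEGF (log2 fold change 2.83 ± 0.70, adjusted p = 0.227 from limma). Ercc8, of transcription-coupled DNA repair, had 42.6, 115, 83.1 and 70.5 and 233, 183, 146 and 138 (log2 fold change 1.21 ± 0.32). Dnajc9, a histone co-chaperone, had 632, 574, 757 and 792 and 1000.3, 1133, 878 and 1229 (log2 fold change 0.62 ± 0.17, adjusted p = 0.278 from limma). Shq1, which assembles H/ACA ribonucleoproteins, had 7.10, 5.47, 9.23 and 10.8 and 32.4, 41.7, 35.3 and 26.7, and the copper transporter Slc31a2 had 348, 421, 351 and 461 and 687, 608, 494 and 882. In all of these but Ercc8, at least 3 of the 4 saline urethras lay in or above the range of MABsallo-VEGF.

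Epithelial markers were lower in the median, and for urothelium this turned without MABsallo-VEGF replicate 2. The median log2 fold change was -0.76 over 13 urothelial genes and -0.76 over 10 squamous genes, and without that urethra the urothelial median was 0.27 and the squamous one -0.56. Summed squamous markers did not share this direction, with a group median of 39644 after MABsallo and 64517 after MABsallo-VEGF. Their sum was higher in 2 pairs of the same replicate number and lower in 2. Of the 13 urothelial genes 1 was lower and 1 higher at an unadjusted p below 0.05, beside 3.38% and 3.44% of all genes. Foxa1, a transcription factor of urothelium, had 107, 32.8, 73.9 and 10.8 after MABsallo and 0, 8.33, 40.4 and 0 after MABsallo-VEGF (log2 fold change -3.26 ± 1.13, unadjusted p = 0.0081). Krt20, a keratin of the urothelial surface, was at 0 in all MABsallo urethras and at 27.0, 8.33, 10.1 and 8.91 in MABsallo-VEGF, on 10 reads in all. Of 18 collagen and matrix genes 15 were above 0, beside 46.7% of all genes, with a median of 0.34 and of 0.07 with 7 samples. Smooth muscle genes had a median of -0.10 over 16 (-0.24 with 7 samples, and up to 0.08 in other alternatives). For adipocyte genes it was 0.27 over 13 (0.13 with 7 samples). For erythroid genes it was -0.44 over 10, which became -1.39 with 7 samples and reached 0.24 in another alternative.

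Regulators of chromatin were followed because the study describes them after MABs, and none of them was called. Of 57 chromatin modifiers 10 were above 0, beside 46.7% of all genes, with a median of -0.17. With 7 samples 27 were above 0, beside 50.7%, and the median was -0.01. The histone methyltransferase Kmt2d was lower at an unadjusted p below 0.05 (log2 fold change -0.63 ± 0.22, adjusted p = 0.574 from limma, and -0.47 with 7 samples), with 2705, 2385, 2853 and 1454 after MABsallo and 1303, 1742, 1947 and 1046 after MABsallo-VEGF. It was the only 1 of the 57 at that mark, beside 3.38% of all genes that were lower. Dnmt3a, Tet2, Hdac1, Kat6a, Ehmt1 and Kdm6a had unadjusted p of 0.195 or more. These 6 belong to 22 genes that the study named from these samples, which are therefore no independent evidence, and of which 8 were above 0 (median -0.19) and 2 (C1qa and Il1b) were higher at an unadjusted p below 0.05. With 7 samples 13 were above 0 (median 0.14) and 1 was higher at that mark.

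Genes of the cell cycle lay higher, 15 of 18 beside 46.7% of all genes, with a median of 0.45 that was 0.03 without MABsallo-VEGF replicate 2. The replication helicase subunit Mcm6 had 426, 421, 212 and 613 after MABsallo and 784, 1042, 484 and 690.2 after MABsallo-VEGF (log2 fold change 0.88 ± 0.37, unadjusted p = 0.024). It was the only 1 of the 18 with an unadjusted p below 0.05, a share near the 3.44% of all genes that were higher. Of 22 antioxidant genes 15 were above 0 (median 0.13, and 0.04 with 7 samples), and the extracellular superoxide dismutase Sod3 had the lowest p (log2 fold change 0.82 ± 0.37, unadjusted p = 0.0378, and 0.49 with 7 samples). Sod3 was the only 1 of the 22 with an unadjusted p below 0.05, again a share near that of all genes. Cytosolic ribosomal proteins had a median of 0.01 over 32, with Rpl10 higher (log2 fold change 0.48, and 0.31 with 7 samples) and Rpl19 lower (log2 fold change -1.42) at an unadjusted p below 0.05. At that mark 3.44% of all genes were higher and 3.38% lower, shares near those of this list. Rpl19 had 5985, 7823, 10146 and 483 and 692, 2217, 2351 and 1256, and genes of this family share sequence with many processed copies, so its count is uncertain. Immediate early genes had a median of 0.01 over 18, and pericyte and mesoangioblast genes of -0.0014 over 11.

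The difference between MABsallo-VEGF and MABsallo at 3d was set against that at 7d in the same fit. In 1 gene (0.00602% of 16606) the 2 differences differed, Ccnb1ip1, a ubiquitin ligase known from meiotic crossing over, with a log2 difference of 6.23 ± 0.95 (adjusted p = 0.0165 from limma). At 3d it was at 0 in all MABsallo urethras and at 5.41, 8.33, 5.04 and 13.4 in MABsallo-VEGF, and at 7d it was at 4.15 to 15.5 in MABsallo and at 0 in all MABsallo-VEGF urethras. That is 6 reads in all at 3d, and the size of the difference depends on the pseudocount. The call was lost with edgeR and DESeq2, which called 0 genes (885 and 860 at an unadjusted p below 0.05), and without any 1 of MABsallo-VEGF 3d replicate 4, MABsallo 7d replicates 7.2 and 11 and MABsallo-VEGF 7d replicates 6, 7 and 11. The leukocyte genes above had differences of the same sign that did not pass, such as 4.16 for S100a9 (adjusted p = 0.795 from limma), 3.20 for Il1b (0.889), 2.25 for Fcer1g (0.889) and 1.67 for RT1-Da (0.889). At 7d the means of MABsallo and MABsallo-VEGF were 2639 and 870.3 for S100a9 and 4847 and 4506 for RT1-Da.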

How the data were processed

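Gene expression was measured in rat urethra by QuantSeq 3′ RNA-seq. The authors filtered adapters, aligned single-end reads to Rnor6.0 with HISAT2, discarded reads that mapped to several places, counted with HTSeq and divided by DESeq2 size factors. The deposited table of 24 samples holds this signal, normalized counts per gene, and 100% of the values of each sample were whole multiples of 1 read (tolerance 0.01), from which reads were recovered. No column was left unassigned (0).

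Log2(normalized count + 1) was tested with limma 3.58.1 (R 4.3.3, trended eBayes, two-sided, Benjamini-Hochberg) in 1 fit of the 6 groups, over genes with a mean of at least 2 in the 8 (or 7) samples compared. For genes of few reads the size of the fold change on this scale depends on the pseudocount. Compared with edgeR on recovered reads, it was larger for Tpsb2 and Hcst and smaller for Hdc and Zcwpw2. A gene was a DEG when its log2 fold change was beyond 1 at an adjusted p below 0.05. Intervals are 95%. No molecular identifiers are described, so floors of 3 reads cover counting error only. edgeR 4.0.16 and DESeq2 1.42.0 were run on recovered reads as alternatives. Scripts were tested on simulated data. PCA used the 500 most variable genes.

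Named were all DEGs, the VEGF axis and Cd34, the 12 higher and 12 lower genes of lowest p without overlap and with a mean of at least 20, up to 2 members of lowest p and 2 of highest mean per list, and genes of the study. Of the last 2 kinds the text gives a part, and some genes and 1 list are not reported here. The comparison and the 33 gene lists were chosen with earlier results of these data known. Deviations from the group mean of same-numbered samples (replicate number in the titles) had correlations of 0.341, 0.256, 0.128 and 0.360 over 13106 genes. Those of differently numbered samples ran from -0.336 to 0.327. MABsallo-VEGF replicate 3 went more with MABsallo replicate 1 (0.327) than with replicate 3 (0.128). No label says that same-numbered samples are pairs. The tests printed are unpaired, and a fit with the replicate number as a block was an alternative. Where a symbol was repeated, the row of highest mean was used. Promoter sequences are those of RefSeq for GRCr8, and gene coordinates in Rnor6.0 are not given.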

Additional observations from a re-analysis of the deposited data

Results flagged for a closer look

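In 14 of 208 groups of 4 samples examined (libraries' read shares, summed lists and named genes), 1 sample lay far outside the other 3 (Dixon's criterion, which chance meets in about 1 in 20 groups).

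MABsallo-VEGF replicate 2 was the sample in 6 of them. Its normalized counts were 2525 for Nrp2 (others of its group 1524 to 1683), 3309 for RT1-Bb (1349 to 1473), 217 for Ciita (40.1 to 65.6), 250.03 for Tpsb2 (21.6 to 53.4) and 733 for Ccl19 (136 to 209). Its summed mitochondrially encoded genes came to 3694512 (2083124 to 2187588). This is the urethra with the least urothelial RNA, whose part in these values was not tested.

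MABsallo replicate 3 stood apart for Cd74 at 4514 (1953 to 2024) and for Cd27 at 73.9 (16.3 to 21.9). MABsallo replicate 4 had 17.6% of its reads on mitochondrial mRNA (8.16% to 9.72%). In MABsallo replicate 2 the cytosolic ribosomal proteins summed to 526089 (393593 to 413051), and MABsallo replicate 1 had 128 of Pag1 (21.7 to 38.3). MABsallo-VEGF replicate 3 was low for Pgf at 85.8 (178 to 184), replicate 1 was high for Krt20 at 27.0 (8.33 to 10.1), and replicate 4 had 8.91 of Neu2, which was at 0 in the others.

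The log2 fold change of Ccnb1ip1 differed between 3d and 7d by 6.23 (adjusted p = 0.0165 from limma), on groups that were each at 0 in 1 treatment.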

How the results depend on the processing

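With 8 samples the 1 DEG became 4 with a pseudocount of 5, 3 without the filter, 0 with quantile normalization (1194 genes at an unadjusted p below 0.05), 0 in a fit of only the samples compared, 0 in that fit with the replicate block, 0 with edgeR and 0 with DESeq2, and 2 to 43 when 1 urethra was left out. With 7 samples the 3 DEGs became 6 with a pseudocount of 5, 8 without the filter, 1 with a filter at 10, 0 in a fit of only the samples compared, 0 with the replicate block, 0 with edgeR, 0 with DESeq2, 5 when saline 3d replicate 6 was left out of the shared fit (chosen after seeing the data), and 7 to 26 when 1 urethra was left out. The 1 gene of the comparison of days became 0 with a filter at 10 (696 at an unadjusted p below 0.05), a pseudocount of 5 (907), edgeR (885) and DESeq2 (860), and 0 to 2 when 1 urethra was left out. The counts stayed within 1.5 times under scaling to the same total, quality weights and thinning to the lowest total. The PC1 difference was 26.6 to 81.5 with other genes or pseudocounts and 27.5 to 53.6 when 1 urethra was left out, except 13.2 with 100 genes. Over 67 genes, 1314 of 1336 alternatives kept direction and side of the threshold. Only Zcwpw2 was called with 8 samples, so for the other genes keeping the side means staying uncalled. Zcwpw2 lost its call in 6 alternatives, among them the replicate block. A call was gained in 8 alternatives. The direction turned in 8, all for Kdr. Its log2 fold change, -0.017 in the values reported, was 0.0082 with quantile normalization, 0.022 with total scaling, 0.074 with edgeR, 0.026 with DESeq2, and -0.22 to 0.13 when 1 urethra was left out. The block, which pairs replicate numbers, changed no other call of a named gene. Medians of 33 lists moved beyond their spread in 1 of 330 alternatives, and 13 changed sign in at least 1. The cause was not tested for any of these. Depth of 2170695 to 4491900 reads limits genes of a few reads, such as Zcwpw2, U1, Camk2g and Ccnb1ip1.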
